A study of Oncorhynchus mykiss with 12 samples.

Results

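In 100 microarray probes, the mean level in trout fed T3 and that in trout fed PTU lay on opposite sides of the control mean. They were found among 9772 probes, out of 12884 trout probes on the array, that were well above background on all 12 arrays and were not among the 100 brightest in control. A probe was taken if both differences from control were 0.4 or more in size on the log2 scale and of opposite sign. They were thus selected on their measured T3 and PTU differences. Of the 9772 examined probes, 31.3% had differences of opposite sign and 233 (2.38%) also reached 0.4 in both, and the 100 with the largest smaller difference are described here. In 89 of them T3 lay above and PTU below control, and in 11 T3 lay below and PTU above.

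The samples were head kidneys of juvenile rainbow trout (Oncorhynchus mykiss) of about 50 g, kept in 6 aquaria of 10 fish. One group was fed T3 at 20 µg per g of feed, one was fed PTU at 5000 µg per g of feed, and control fish received neither agent. Feeding lasted 7 days in T3 and PTU fish, and the control samples are also labelled day 7. Each group gave 4 pools of 2 fish, and each pool was read on 1 array. The labels do not say which aquarium a pool came from, so pools of 1 group may share water and tank, and the spread given here is that between pools. Since each pool was read on 1 array, this spread also holds differences between arrays, and pool and array cannot be told apart in it.

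T3 (triiodothyronine) is the active thyroid hormone: it binds receptors in the cell nucleus that switch the transcription of their target genes. PTU (propylthiouracil) blocks the peroxidase with which the thyroid makes the hormone. A transcript that follows thyroid hormone in a graded way would lie on one side of control under T3 and on the other under PTU, which is the pattern the selection looks for. The head kidney of bony fish forms blood cells, houses lymphoid cells and also holds the interrenal cells that make cortisol.

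The files name probes by IDs alone, and 0 of the 12884 IDs matched the RefSeq gene table of the trout genome, so no member could be given a gene, a role or a sequence, and the tissue could not be checked against its markers. Levels are log2 signal minus the 75th percentile of the array's trout probes, so a level of 0 is the brightness of that percentile. In RNA of a whole organ, a change in the number of cells of a type cannot be told apart from a change of RNA per cell. T3 and control arrays lay on slide 1 and PTU arrays on slide 2, which was scanned separately, so PTU, slide and scan cannot be told apart in any PTU value. On slide 1 the control arrays lay in row 1 and the T3 arrays in row 2. T3 and slide row therefore cannot be told apart in any T3 difference from control. On 3 arrays, T3 replicate 1, PTU replicate 3 and control replicate 2, the dimmest 20% of the probes lay 1.88 to 2.67 above their medians over the arrays, against -0.93 to 0.19 on the 9 other arrays. These 3 arrays also had the most probes well above background, 97.37% to 99.56% against 79.1% to 93.21%.

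The differences from control chose the members, so they are given as a description with no test. For the 89 members with T3 above control, the T3 difference ran from 0.52 to 1.85 with a median of 0.72, and the PTU difference from -3.09 to -0.52 with a median of -0.79. For the 11 members with T3 below control, the T3 difference ran from -1.17 to -0.52 with a median of -0.72, and the PTU difference from 0.57 to 1.35 with a median of 0.75. Over all 9772 examined probes the median differences were 0.11 for T3 and 0.015 for PTU. Both differences use the same 4 control arrays. The last member had a smaller difference of 0.5186, and the first probe past the limit of 100 had 0.5173. At the threshold itself, the last probe to meet it had a smaller difference of 0.4005 and the next had 0.3995.

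Many members came in pairs of spots with nearly equal values. The IDs are numbered without gaps, and probes whose numbers lie 6442 apart, which is the number of ID pairs on the array, gave nearly the same values. Over the 6442 such pairs the 2 spots had a median Pearson r of 0.981 across the 12 arrays and a median difference in level of 0.0557 on the log2 scale. For IDs 6441 apart the median r was 0.191 and the median difference in level 2.58, and for neighbouring numbers they were 0.186 and 2.57. These values are descriptions across arrays that fall into 3 groups, and no p is given. What the IDs stand for is not given in the sources used here, so whether both spots of a pair carry 1 sequence was not tested. The spots of a pair lay a median of 68 grid positions apart on the array, and 3 pairs were adjacent.

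The 100 members therefore came from 70 ID pairs, 63 with T3 above control and 7 with T3 below. Both spots were members in 30 of these pairs. Of the 100 partner spots, 60 were members, 16 met the rule past the limit of 100, 16 were examined and did not meet it, and 8 were not well above background on all arrays. The partner had both differences on the same sides of control for 99 members and also reached 0.4 in both for 83. The exception was JC003256, named here after its values were seen, with differences of 0.56 for T3 and -0.69 for PTU on its own spot and of -0.051 and -1.22 on its partner. The median gap between member and partner was 0.111 for the T3 difference and 0.121 for the PTU difference. The highest gaps were 1.85 and 0.705, and the lowest r between member and partner was 0.509. JC006958, named after its values were seen, had a T3 difference of 0.59 on its own spot and 2.44 on its partner. Its SD between partner spots, 1.53, exceeded its SD between pools within groups, 1.46. Partner spots read the same RNA on the same array, so their likeness speaks to the spot and not to the fish. The SD between partner spots had a median of 0.144 among the members and 0.071 among all examined probes.

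By their medians, the arrays of a group, each with its own pool, differed far more than the spots of a pair. The SD between pools within groups had a median of 1.48 among the members, against 0.557 over all examined probes, and 80 of the 100 members exceeded 0.83, the upper quartile of the examined probes. Within single groups the median SD of the members was 1.62 in T3, 1.47 in PTU and 1.44 in control, against 0.471, 0.502 and 0.534 over the examined probes. The median ratio of the SD between pools to that between partner spots was 9.87 for the members and 7.46 for the examined probes. The members were chosen by group means of these same levels, and they were dimmer than the examined probes. The rule favours probes with a large SD between pools, so nothing is read from these contrasts with the examined probes. In 8 of the 100 members the smaller difference from control was larger than the SD between pools.

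The member with the largest smaller difference was JC000215, and the next was its partner JC006657. JC000215 lay at 0.62, 3.50, 0.24 and -3.61 in T3 pools 1 to 4. It lay at -5.53, -7.05, -1.89 and -3.85 in PTU pools 1 to 4, and at -1.23, 2.19, -4.83 and -2.80 in control pools 1 to 4. 3 of the 4 T3 pools were high, but T3 pool 4 lay below 3 of the control pools, and control pool 2 exceeded all T3 pools except T3 pool 2. The groups therefore overlapped, and the means were 0.19 ± 2.92 in T3, -4.58 ± 2.22 in PTU and -1.67 ± 2.97 in control (SD, n = 4 each). JC006657 gave 0.78, 3.56, 0.20 and -3.85 in the T3 pools. It gave -6.49, -6.68, -1.75 and -3.87 in the PTU pools and -1.41, 2.46, -4.74 and -2.75 in the control pools. Both spots thus ranked the pools in nearly the same way, and their range over the 12 pools reached 10.6 log2 units for JC000215. The differences from control were 1.85 for T3 and -2.91 for PTU on JC000215, and 1.78 and -3.09 on JC006657. Without the 3 arrays with raised dim probes they were 2.997 and -2.522 on JC000215 and 2.94 and -2.72 on JC006657.

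Among members with T3 below control, JC002008 and its partner JC008450 had the largest smaller differences. JC002008, a bright probe, lay at 3.81, 6.89, 3.76 and 6.41 in T3 pools 1 to 4. It lay at 6.87, 7.36, 7.23 and 6.40 in the PTU pools and at 7.61, 6.26, 3.76 and 7.02 in the control pools. The levels fell into a high and a low set: T3 pools 1 and 3 and control pool 3 were low, and all other pools, the 4 PTU pools among them, were high. The means were 5.22 ± 1.67 in T3, 6.96 ± 0.431 in PTU and 6.16 ± 1.70 in control (SD, n = 4 each), with differences from control of -0.95 for T3 and 0.80 for PTU. JC008450 lay at 3.77, 6.93, 3.62 and 6.38 in T3, at 6.85, 7.34, 7.16 and 6.32 in PTU and at 7.36, 5.996, 3.57 and 6.94 in control, with the same 3 pools low. Its differences were -0.79 for T3 and 0.95 for PTU. Without control pool 3, the PTU difference was -0.000399 on JC002008 and 0.15 on JC008450, so the PTU side of this pattern rests on that 1 control pool. The T3 difference without T3 pool 1, T3 pool 3 or control pool 1 was -0.323, -0.274 or -0.33 on JC008450, short of 0.4. On JC002008 it was -0.477, -0.462 or -0.464. Without the 3 arrays with raised dim probes, the differences were -0.446 and 0.744 on JC002008 and -0.313 and 0.88 on JC008450.

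The smallest spread between pools belonged to JC000017 and its partner JC006459, which are named here after their values were seen. JC000017 lay at -3.31, -3.24, -3.44 and -3.19 in T3 pools 1 to 4. It lay at -2.43, -2.08, -1.93 and -1.95 in the PTU pools and at -2.48, -3.27, -2.67 and -2.66 in the control pools. Every PTU pool lay above every control pool, and every T3 pool below 3 of the 4 control pools, with control pool 2 inside the T3 range. PTU pool 1 lay above control pool 1 by less than the SD between the partner spots, 0.0844. The means were -3.30 ± 0.107 in T3, -2.10 ± 0.229 in PTU and -2.77 ± 0.343 in control (SD, n = 4 each). JC006459 lay at -3.53, -3.29, -3.44 and -2.99 in T3, at -2.46, -2.06, -1.89 and -1.97 in PTU and at -2.63, -3.12, -2.78 and -2.56 in control. There too the PTU pools lay above all control pools, and control pool 2 lay among the T3 pools. The differences from control were -0.52 for T3 and 0.67 for PTU on JC000017, and -0.54 and 0.68 on JC006459. These are smaller than those of the leading members, but the SD between pools was 0.246 and 0.247. Without the 3 arrays with raised dim probes, control pool 2 among them, the differences were -0.68 and 0.45 on JC000017 and -0.59 and 0.49 on JC006459.

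The 89 members with T3 above control were not high on all T3 arrays alike. Their median level, set against each member's control mean, was 2.25 on T3 replicate 1, 0.43 on replicate 2, 0.074 on replicate 3 and 0.0070 on replicate 4. On the PTU arrays it was -1.70, -2.25, 0.77 and -0.69 on replicates 1 to 4, and on the control arrays -0.42, 1.68, -0.67 and -0.31. T3 replicates 3 and 4 thus lay near the control mean, and PTU replicate 3 lay above it. That mean includes control replicate 2, an array with raised dim probes. T3 replicates 3 and 4 lay above control replicates 1, 3 and 4, and the counts against the control mean share this reference. All 89 lay above their control mean on T3 replicate 1, 60 on replicate 2, 49 on replicate 3 and 45 on replicate 4. PTU replicate 2 had none of the 89 above the control mean, while PTU replicate 3 had 72. In each group the array with raised dim probes thus had the highest median. T3 replicate 1 was the highest of the 12 arrays for 47 of the 89. PTU replicate 2 was the lowest for 63 and PTU replicate 1 for 22. These PTU arrays also had the lowest shifts of the dimmest probes among the 12 arrays, -0.93 on replicate 2 and -0.55 on replicate 1. Of the 100 members, 44 were among the dimmest 25% of the examined probes by control mean, 40 among the next 25%, 9 among the next and 7 among the brightest. The part of the raised dim probes in the pattern was not tested beyond leaving those arrays out. That of the low shifts on PTU replicates 1 and 2 was not tested beyond omitting each array singly.

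The 11 members with T3 below control came from 7 ID pairs and were of mixed brightness. Their median level against the control mean was -1.67, -0.60, -1.32 and 0.054 on T3 replicates 1 to 4. It was 0.47, 0.90, 1.07 and 0.92 on PTU replicates 1 to 4, and 1.06, -0.040, 0.096 and -0.069 on the control arrays. All 11 lay above their control mean on PTU replicates 2 and 4, and none did on T3 replicate 1. On T3 replicate 4, in contrast, 6 of the 11 lay above it. Control replicate 4 was the lowest array for 4 of these members.

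Members also varied together within groups. After each group's mean was taken off, the median Pearson r over the 12 arrays was 0.447 between members that were not partners (4920 pairs), against 0.00374 between all examined probes, and it exceeded 0.5 for 45.4% of the member pairs against 16.4%. These correlations share the arrays and their shifts and are given as a description. The members were chosen by their means on these same arrays, and they were dimmer than the examined probes. The rule can thus favour shared deviations, the examined probes are not a like set, and nothing is read from the contrast. Average-linkage grouping of these deviations at a distance of 0.5, chosen after the values were seen, put 83 members into 3 blocks and the other 17 into 7 blocks of 1 to 4 members.

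The largest block held 62 members from 45 ID pairs, all with T3 above control. Its mean level was -0.55, -2.45, -3.14 and -3.53 on T3 replicates 1 to 4. It was -5.36, -5.72, -2.19 and -3.94 on the PTU arrays and -3.93, -1.19, -4.02 and -3.71 on the control arrays. In each group the highest array was the one with raised dim probes, and the median control mean of the block was -3.63. Without those 3 arrays 43 of the 62 still met the rule.

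The second block held 11 members from 6 ID pairs and followed other pools. Its mean level was -1.35, 0.51, -2.77 and -3.32 on T3 replicates 1 to 4. It was -2.19, -6.32, -2.80 and -3.46 on the PTU arrays and -0.95, -1.18, -4.54 and -3.98 on the control arrays. T3 replicate 2 was high, PTU replicate 2 was by far the lowest, and the control pools split into a high pair and a low pair. All 11 met the rule without the 3 arrays with raised dim probes. The third block held 10 members from 8 ID pairs, with a median SD between pools of 0.75 against 1.65 in the first block and 2.18 in the second. Its mean level was -1.35, -2.09, -1.45 and -1.80 on the T3 arrays, -3.73, -4.15, -1.55 and -3.18 on the PTU arrays and -2.37, -2.69, -2.31 and -1.88 on the control arrays. The T3 arrays of this block lay close together, and PTU replicate 3 lay among them. The control arrays lay about as close together, and control replicate 4 lay above T3 replicate 2. Of these 10, 4 still met the rule when the 3 arrays with raised dim probes were omitted.

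No member had its T3 pools and its PTU pools on opposite sides of all control pools; 1 of the 9772 examined probes (0.0102%) did. T3 and control did not overlap in 3 members, against 4.06% of the examined probes, and PTU and control in 3, against 6.76%. T3 and PTU did not overlap in 10 members, against 5.24%. Without the 3 arrays with raised dim probes, 6 members (6%) had T3 and PTU pools on opposite sides of the control pools, against 0.379% of the examined probes. The rule used these contrasts, so nothing is read from these counts.

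limma, fitted to 11762 probes with Benjamini-Hochberg adjustment, called 0 of the 100 members at an adjusted p under 0.05 for T3 against control, for PTU against control and for T3 against PTU, and 0 (0%) of all tested probes in each. At an unadjusted p under 0.05 it counted 2 members for T3 against control (5.37% of all tested probes), 9 for PTU against control (10.5%) and 36 for T3 against PTU (6.89%). These contrasts chose the members, so nothing is read from the counts.

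The membership depended on single pools. Of the 100 members, 44 still met the rule without T3 replicate 1, 51 without PTU replicate 2, 53 without control replicate 2 and 65 without control replicate 3. All 100 met it without T3 replicate 4 and without PTU replicate 3. Both signs were kept by 76 members without T3 replicate 1 and by 83 without control replicate 2, the lowest counts over the 12 omissions. Without the 3 arrays with raised dim probes together, 1 from each group, 67 members met the rule and all 100 kept both signs. For the 89 members with T3 above control the median differences were then 0.75 for T3 and -1.07 for PTU, against 0.72 and -0.79 with all arrays. Some signs were barely kept: the T3 difference was then -0.04 on JC005965 and -0.071 on its partner JC012407, named after their values were seen. The arrays that remained also chose the members, and each group lost 1 raised array, so nothing is read from the kept signs. The SD between pools had a median of 0.899 among the members without the 3 arrays, against 0.42 among the examined probes. The rule favours this contrast too.

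13 members from 9 ID pairs met the rule under each of the 12 omissions, 11 with T3 above control and 2 with T3 below. JC000215, JC006657, JC000017 and JC006459 were among them, and JC002008 and JC008450 were not. The omissions reuse the arrays that chose the members, and the share of all examined probes that pass them is not given. Nothing is therefore read from the count of 13. The SD between pools of these 13 ran from 0.246 to 2.83 with a median of 0.766. For 8 of the 13 the partner was kept too. The partners of JC006069, JC008681 and JC009247 missed the rule, with T3 differences of 0.39, 0.194 and 0.205. The partner of JC005799 was not well above background on all arrays, and that of JC010942 met the rule past the limit of 100. Without the 3 arrays with raised dim probes, JC010942 missed the rule with a T3 difference of 0.214. In a pair ranked 21 and 37 both spots were kept: the spot ranked 21 lay at -1.68, -1.71, -0.83 and -0.76 in T3, at -2.96, -2.67, -2.73 and -4.24 in PTU and at -1.70, -2.77, -2.02 and -1.70 in control. Its T3 pools 1, 3 and 4 were above all control pools, T3 pool 1 by less than the SD between the partner spots, and PTU pools 1 and 4 were below all of them, while PTU pools 2 and 3 lay just above control pool 2.

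The share of probes with T3 above and PTU below control also depended on how arrays were scaled. It was 87.6% of the 233 probes that met the rule, and 50% of 182 after median scaling, 61.2% of 227 after quantile normalization and 50.5% of 202 in the authors' deposited value table. It was 88.7% of 239 with the 75th percentile taken only over probes that every array measured well above background, and 80.8% of 78 after normexp with quantile normalization. It was 67.8% of 292 without the 3 arrays with raised dim probes and 37.2% of 336 without T3 replicate 1. The median T3 difference over all tested probes was 0.12 as scaled here and -0.11 after median scaling, and the median PTU difference 0.023 and -0.085. Under these 5 other scalings and background corrections all 100 members kept both signs. Median scaling, the other percentile and, up to rounding, the deposited table move all probes of an array by the same amount. The T3 difference of JC000215 was 1.85 as scaled here and 1.62 after median scaling, and every member had a smaller difference of at least 0.5186. Shifts of that size could turn no sign, so nothing is read from the kept signs there. The number that still met the rule was 68 after median scaling, 85 after quantile normalization, 97 in the deposited table, 100 with the other percentile and 44 after normexp. With the 10 spots of members that the scanner software marked as outliers left out, 92 met the rule and 95 kept both signs. The 10 spots lay in 10 different members, so all of these losses fell among those 10.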

How the data were processed

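Per the labels' protocols, pool RNA was reverse transcribed from oligo(dT) with Cy3 and hybridised in 1 colour. Per the file headers, Agilent Feature Extraction 10.7.3.1 quantified the scans. The processed and median signals deposited by the authors are intensity values, not scaled between arrays. The values in the authors' deposited table are a fraction, each probe's share of its array's summed signal; this is read from the values, whose ratio to that share ran from 0.9951 to 1.005.

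Levels are log2 of the deposited processed signal, less the 75th percentile over the trout probes of that array. The members were found from group means with Python 3.11.15. All groups entered 1 limma model (limma 3.58.1, R 4.3.3), two-sided, over 11762 probes well above background on at least 3 of the 4 arrays of a group. In that model 368 spots marked as outliers were missing and 1 saturated spot was kept; the rule used all spots. The model was tested on simulated data. The number of arrays limits the precision. The members, gene lists and tests were chosen with earlier results of these data known. Probes were named by a fixed rule, the 2 members of each pattern with the largest smaller difference, since 0 members had all groups apart. Gene lists were not analysed here for want of gene names. Alternatives were other scalings, normexp background correction on median signals (the mean signal is not among the columns) with an offset of 50, other thresholds and filters, a replicate block and the omission of arrays.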

Additional observations from a re-analysis of the deposited data

Results flagged for a closer look

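Within each group of 4 arrays, the highest and lowest array were compared with the rest by Dixon's ratio of gap to range. Of 21 groups of 4 values, 4 passed its 95% critical value, where chance passes about 1 in 20. For the dimmest probes these were T3 replicate 1, with a shift of 2.67 log2 units, and control replicate 2, with 1.88. In the median level of the 89 members with T3 above control, control replicate 2 lay apart at 1.68 against their control mean. In that of the 11 members with T3 below control, control replicate 1 lay apart at 1.06. The members were chosen from these same arrays, so the chance rate does not hold for their medians, which are given as values only. The cause of these values was not tested.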

How the results depend on the processing

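The arrays with raised dim probes and the averaging of ID pairs were chosen as alternatives after the values were seen. Of the alternatives run, those that moved the count of 233 probes by over 1.5 times were a threshold of 0.3 (479) or 0.6 (62), no filter on dim probes (499), normexp with quantile normalization (78) and averaging the 2 spots of an ID pair (104 of 4788 pairs). With 1 array omitted the count ran from 196 (without PTU replicate 2) to 505 (without PTU replicate 3), with 439 without T3 replicate 4, and the members that met the rule from 44 to 100. After normexp 44 members met the rule, and their median SD between pools was 0.827 against 1.48; with 1 array omitted it ran from 1.4 to 1.56. The cause was not tested, apart from the lower or higher threshold, the wider filter and the fewer units of averaging. Of 152 values of the 4 members named by rule, 151 kept their sign. Many of these could not change: omitting a T3 array leaves the PTU difference as it was, and the reverse. Leaving out outlier-marked spots changes nothing in these members, which had none. JC000215 and JC006657 are also partner spots, as are JC002008 and JC008450, so nothing is read from the count. The PTU difference of JC002008 was -0.000399 without control replicate 3 and ran up to 1.28 without control replicate 1. limma called 0 probes for T3 against control in all alternatives. For PTU against control it called 7 after quantile normalization, 4 after normexp and 3 without the 3 arrays; for T3 against PTU it called 4, 4 and 2. With 1 array omitted it called 0 to 4 and 0 to 3, the highest without PTU replicate 3. Under the replicate block the model called 0 probes in all 3 comparisons, and the unadjusted p was under 0.05 for 546 probes between T3 and control, 1093 between PTU and control and 662 between T3 and PTU. The labels do not say that a replicate number marks anything shared. By the file headers, arrays of the same number lay in the same slide column, so the replicate block is also a block by slide column. Arrays of the same number had deviations from their group means that correlated at -0.367 to 0.356, with 3 of 12 correlations over 0.1. A slide block was not run, since PTU alone lies on slide 2 and the block would equal the group.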

Other observations

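The pairing of IDs also bears on the probes that limma called under some alternatives, none of which was a member or met the rule. For PTU against control, the 7 probes called after quantile normalization came from 4 ID pairs, with both spots called in 3 of them. The 4 called after normexp came from 2 ID pairs. For T3 against PTU, the 4 called after quantile normalization came from 3 ID pairs and the 4 called after normexp from 2. The adjustment of p-values took both spots of a pair as separate probes.

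When the 2 spots of each ID pair were averaged before the rule, 104 of 4788 pairs (2.17%) met it, 92 of them with T3 above control. Of the 70 ID pairs of the members, 62 had both spots well above background on all arrays, and 61 of these met the rule after averaging. The members were chosen on these same values, with a smaller difference of 0.5186 or more against the threshold of 0.4. Partner spots read the same RNA on the same array, so nothing is read from this count.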
